A study of Mus musculus with 24 samples.

Results

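The genes described here are 10 serotonin receptor genes, Htr1a, Htr1b, Htr1d, Htr1f, Htr2a, Htr2c, Htr3a, Htr4, Htr5a and Htr7, chosen by name from the 36528 genes counted in each library. The other 4 receptor genes of the family in the files, Htr2b, Htr3b, Htr5b and Htr6, are given by their levels at the end. The study profiled neurons of the adult mouse cortex by bulk RNA sequencing in 24 libraries. They fall into 4 sorted subtypes of 6 libraries, named EXC, PV, SST and VIP in the labels, which do not write these names out in full. Cells were freed with papain and taken by fluorescence sorting as DAPI-negative cells carrying GFP or tdTomato. All groups share that preparation, and they differ in the transgenic reporter line. The labels name neither the line, the promoter that drives its reporter, the strain nor an age beyond adult. Female and male libraries numbered 2 and 4 in EXC, 3 and 3 in PV, 2 and 4 in SST, and 4 and 2 in VIP. Whether libraries came from separate animals is not stated, so the p-values speak only of the spread among these samples, which may be technical. In sorted bulk samples, fewer cells that express a gene and less of its RNA per cell cannot be told apart.

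Serotonin reaches the cortex through axons of the brainstem raphe nuclei and acts there on several receptor types. HTR1 and HTR5 receptors couple to Gi/o proteins, which lower cyclic AMP and open potassium channels, and HTR2 receptors couple to Gq/11, which raises intracellular calcium. HTR4, HTR6 and HTR7 couple to Gs and raise cyclic AMP, and HTR3A forms a cation channel that serotonin opens directly. In the cortex, HTR3A is well known as a marker of a class of interneurons that includes the VIP cells, and HTR2A is known as the target of the classical hallucinogens.

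Total counts ran from 1548907 to 15978459 per library with a median of 6012251.5, so that 1 CPM (reads scaled to a common library size) stands for 1.55 reads in the shallowest library, which is a PV library, and 16.0 in the deepest, an SST library. Levels below are CPM of the deposited counts, scaled by TMM. The genes that name the sorts went with their labels: Pvalb averaged 201 CPM in PV against 3.16 or less elsewhere, Sst 1158 in SST against 58.8 or less, Vip 1727 in VIP against 1.58 or less, and Slc17a7, a transporter of excitatory neurons, 532 in EXC against 42.5 or less. Mitochondrial genes took a median of 33.8% of the reads in PV and at most 16.6% in any library of the other subtypes. The 7 markers of striatal projection neurons had a median sum of 824 CPM in SST, 550 in VIP, 112 in EXC and 76.9 in PV. Of these, Penk alone averaged 384 CPM in SST and 512 in VIP, and the other 6 had medians of 479 in SST and 41.0 in VIP. The 6 markers of dentate granule cells had a median sum of 1499.9 CPM in EXC, 1129 in VIP, 11.8 in SST and 8.94 in PV. There Prox1 alone averaged 942 CPM in EXC and 1125 in VIP, and the other 5 had medians of 531 in EXC and 0.975 in VIP. The 6 markers of ependymal cells had a median sum of 108 CPM in PV, 5.01 in SST, 3.13 in VIP and 2.04 in EXC. The 7 astrocyte markers had medians of 172 in PV, 104 in VIP, 61.9 in EXC and 39.3 in SST. The part of such cells in the receptor levels was not tested. Libraries were sequenced in 4 pools. PV shared a pool with EXC only, while SST shared one with VIP and not with EXC, so for PV against SST, VIP against PV and SST against EXC the pool and the subtype cannot be told apart within a pool.

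All 10 receptor genes were among the 14890 that passed the filter on low counts, and their levels differed between subtypes in most comparisons. A gene was called where edgeR's quasi-likelihood test gave a p under 0.05 after Benjamini-Hochberg adjustment over every gene tested. Against EXC, 5 of the 10 were called in PV, where 45.9% of all genes were called, 6 in SST (all genes 38.4%), and 8 in VIP (39.1%). Among the interneuron sorts, 5 were called between PV and SST (26.3%), 7 between VIP and PV (48.6%) and 9 between VIP and SST (31.3%). In the last pair the median size of the change was 2.30 on the log2 scale for the receptor genes and 0.48 for all genes, and in PV against EXC it was 1.06 and 0.70. Every one of the 10 was called in at least 1 pair, as were 75.8% of all genes. Htr2c was called in all 6 pairs, and Htr1a, Htr1d, Htr2a and Htr4 in 5, where 12.1% of all genes were called in at least 5. Htr2c and Htr3a were called higher in VIP than in each other subtype (5.89% of all genes) and Htr1b in SST (1.73%). Called lower than in each other subtype were Htr1d and Htr2a in VIP (5.43%), Htr1a and Htr4 in PV (6.49%) and Htr2c in EXC (6.29%). Libraries did not overlap for 4 of the 10 genes between PV and EXC (23.2% of all genes), 5 between SST and EXC (18.3%), 4 between VIP and EXC (17.4%), 4 between PV and SST (20.8%), 6 between VIP and PV (27.7%) and 8 between VIP and SST (21%). The order of the subtypes by mean level was the same by CPM and by the authors' deposited RPKM for all 10 genes.

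**Figure D1:**
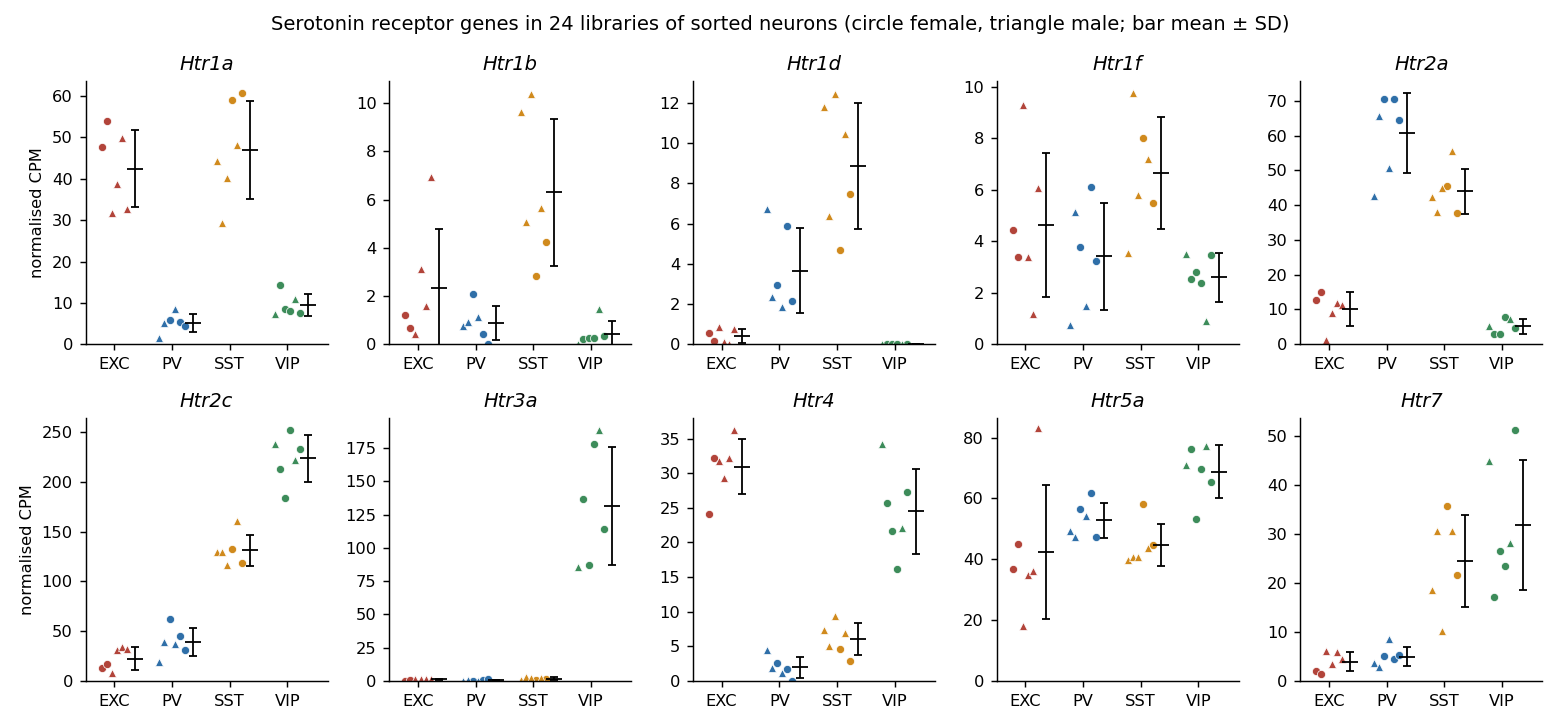
Levels of the 10 receptor genes in normalised CPM, 1 panel per gene with its own linear axis, in the 6 libraries of each subtype. Points are libraries, circles female and triangles male, and bars give the mean and SD, ending at 0 where the SD passes below it. Htr3a is high in VIP only, Htr1d sits at 0 in all VIP libraries, Htr2c and Htr7 are highest in VIP and SST, and Htr4 is highest in EXC and VIP.

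A pair of patterns was shared by more than 1 receptor gene. Htr1d and Htr2a were higher in PV and SST than in EXC, and lowest in VIP, though for Htr2a the direction of VIP against EXC turned within the pool that VIP and EXC share. Htr2c and Htr7 were higher in VIP and SST than in PV and EXC. For Htr7 the calls of SST against EXC, VIP against PV and PV against SST were lost with the pool as a covariate. The promoters of these 4 genes are shown because their members moved together. RefSeq promoter windows, 250 bases before to 50 after an annotated start on GRCm38.p6, were matched for 8 of the 10 genes; Htr3a and Htr4 had none. In the sequences, capitals mark matches on either strand to 6 short motifs: the TATA box TATAAA, the GC box GGGCGG, the CCAAT box CCAAT, the cAMP response element TGACGTCA, the AP-1 element TGANTCA and the E-box CANNTG. Each window is written 5′ to 3′ on the gene's strand: Htr1d at chr4:136423274-136423573 (plus), the first of its 2 windows, Htr2a at chr14:74640624-74640923 (plus), Htr2c at chrX:146962263-146962562 (plus) and Htr7 at chr19:36057311-36057610 (minus).
Htr1d: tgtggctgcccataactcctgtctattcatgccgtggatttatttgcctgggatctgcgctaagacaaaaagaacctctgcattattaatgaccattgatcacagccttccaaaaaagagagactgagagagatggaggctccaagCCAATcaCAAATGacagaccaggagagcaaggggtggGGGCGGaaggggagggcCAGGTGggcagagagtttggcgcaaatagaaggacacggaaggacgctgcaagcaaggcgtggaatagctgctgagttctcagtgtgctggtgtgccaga
Htr2a: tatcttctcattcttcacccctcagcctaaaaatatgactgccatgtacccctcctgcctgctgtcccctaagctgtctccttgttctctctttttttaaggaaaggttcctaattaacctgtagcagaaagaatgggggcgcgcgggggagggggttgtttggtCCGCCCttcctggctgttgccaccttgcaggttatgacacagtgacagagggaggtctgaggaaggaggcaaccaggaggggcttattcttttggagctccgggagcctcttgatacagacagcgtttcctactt
Htr2c: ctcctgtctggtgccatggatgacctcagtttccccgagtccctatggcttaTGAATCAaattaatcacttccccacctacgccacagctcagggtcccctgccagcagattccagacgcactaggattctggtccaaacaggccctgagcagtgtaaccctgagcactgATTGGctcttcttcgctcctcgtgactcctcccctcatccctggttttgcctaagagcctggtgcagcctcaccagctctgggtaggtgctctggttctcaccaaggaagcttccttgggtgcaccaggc
Htr7: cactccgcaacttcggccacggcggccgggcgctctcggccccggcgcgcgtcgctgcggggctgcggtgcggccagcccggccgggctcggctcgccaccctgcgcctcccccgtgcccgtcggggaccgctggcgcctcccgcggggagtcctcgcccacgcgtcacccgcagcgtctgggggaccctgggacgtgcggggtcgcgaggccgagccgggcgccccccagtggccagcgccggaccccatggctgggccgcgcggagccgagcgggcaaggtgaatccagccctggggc
The first window of Htr1d and the window of Htr2a each held 1 GC box, a motif found in 35.7% of all 32851 RefSeq promoter windows, and that of Htr1d also held 1 CCAAT box (37.4% of all windows) and 2 E-boxes (72.3%). The Htr2c window held 1 CCAAT box and 1 AP-1 element, which 7.81% of all windows hold. None of the 6 motifs matched in the Htr7 window, which was the richest in G and C of those shown, at 81.0% of its bases against a median of 52.7%, with 46 CpG dinucleotides against a median of 7. This window lies wholly inside the Htr7 gene model (chr19:35958415-36058133), downstream of the 5′ end of that model. The other 3 windows shown had 52.0% to 56.3% G and C and 5 to 7 CpG. The second Htr1d window, chr4:136424362-136424661 (plus), held 4 GC boxes and 1 E-box, with 74.3% G and C and 28 CpG, and so did not share the makeup of the first. The motifs are letters in a window and were not tested as sites of any factor.

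Among the Gi/o-coupled receptors, Htr1a, the autoreceptor of raphe neurons and an inhibitory receptor of pyramidal cells, was high in EXC and SST and low in PV and VIP. In EXC its lowest, median and highest levels were 31.7, 43.2 and 54.0 CPM, and in SST they were 29.2, 46.3 and 60.7 CPM. PV libraries ranged from 1.49 to 8.51 with a median of 5.31 CPM, and VIP libraries from 7.38 to 14.3 with a median of 8.22 CPM. No PV or VIP library reached the lowest EXC or SST library, whereas EXC and SST overlapped and were not called apart (log2 fold change 0.14 ± 0.21 (SE), adjusted p = 0.645). The level was lower in PV than in EXC by a log2 fold change of -3.00 ± 0.26 (SE, adjusted p = 4.08e-10) and lower in VIP than in SST by -2.40 ± 0.23 (SE, adjusted p = 8.94e-09). Between the low subtypes VIP was above PV by 0.75 ± 0.26 (SE, adjusted p = 0.0211). That call was lost without PV replicate 5 (0.71, adjusted p = 0.0535) or without VIP replicate 5 (0.65, adjusted p = 0.0559), and with the pool as a covariate (1.20, adjusted p = 0.12). Within POOL6188, the pool that PV and EXC share, Htr1a differed by as much as over all libraries (-3.04, adjusted p = 1.32e-07).

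Htr1b, the receptor of axon terminals that inhibits transmitter release, was highest in SST and low everywhere. SST libraries ran from 2.81 to 10.4 with a median of 5.36 CPM, EXC libraries from 0.423 to 6.94 with a median of 1.39, PV from 0 to 2.10 with a median of 0.842, and VIP from 0 to 1.47 with a median of 0.259 CPM. SST stood above every PV and VIP library, and overlapped with EXC. The fall from SST to VIP, 449 reads against 16, amounted to 14.1-fold with a counting interval from 8.60 to 24.9 (adjusted p = 0.000129), and SST exceeded EXC by a log2 fold change of 1.47 ± 0.53 (SE, adjusted p = 0.0311). The last call was lost without EXC replicate 2, SST replicate 1, SST replicate 3 or SST replicate 6, at adjusted p from 0.053 to 0.0595. With the pool as a covariate the value was 5.99 (adjusted p = 0.00915), in a fit that links SST to EXC only through EXC replicate 3. The Htr1b gene model also shares bases with another model, which held 882 reads over all libraries. Htr1b was also lower in VIP than in EXC by -2.02 ± 0.64 (SE, adjusted p = 0.0138), a call lost without EXC replicate 6, the highest EXC library (-1.47, adjusted p = 0.0561), and turned in direction, uncalled, with the pool as a covariate (1.11 ± 1.35 (SE), adjusted p = 0.587).

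Htr1d, a close relative of Htr1b with the same presynaptic role, was present in SST and PV and had no read in any VIP library. SST ranged from 4.68 to 12.5 CPM with a median of 8.95, PV from 1.85 to 6.73 with a median of 2.64, and EXC from 0 to 0.846 with a median of 0.356. All PV and SST libraries lay above all EXC and VIP libraries, and PV and SST overlapped. Summed over the group, SST held 663 reads, PV 55, EXC 17 and VIP 0. Set against a floor of 3 reads over the VIP group, Htr1d was at least 111-fold higher in SST, at least 51.5-fold higher in PV and at least 5.21-fold higher in EXC than in VIP (adjusted p = 9.39e-08, 7.4e-07 and 0.0021). Against EXC it was 21.4-fold higher in SST (counting interval 13.2 to 36.9, adjusted p = 2.76e-06) and 9.88-fold higher in PV (5.65 to 18.2, adjusted p = 0.000149). The difference of PV from SST was not called (log2 fold change -1.18 ± 0.52 (SE), adjusted p = 0.0997). It was called without EXC replicate 5 (adjusted p = 0.0496) and with only these subtypes fitted (-1.11, adjusted p = 0.0136). With the pool as a covariate it could not be estimated (SE 541).

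The remaining Gi/o-coupled members, Htr1f and Htr5a, differed least. Htr1f ranged from 0.747 to 9.78 CPM over all 24 libraries, and its median per subtype lay between 2.67 CPM in VIP and 6.49 in SST. Of its 6 pairs only VIP against SST was called (-1.42 ± 0.45 (SE), adjusted p = 0.0174), and there every SST library lay above every VIP library; the call was lost with the pool as a covariate (-1.08, adjusted p = 0.188) and kept within POOL7098 (-1.15, adjusted p = 0.0458). With the pool as a covariate Htr1f was also called lower in VIP than in EXC (-2.32, adjusted p = 0.0262). Htr5a was present in all libraries, at 18.0 to 83.2 CPM, with both extremes in EXC. Its medians were 70.3 CPM in VIP, 51.8 in PV, 42.3 in SST and 36.5 in EXC, and no pair of subtypes was free of overlap. VIP was called higher than EXC (0.68 ± 0.23 (SE), adjusted p = 0.0189, but 0.0907 with only these subtypes fitted) and higher than SST (0.61 ± 0.22 (SE), adjusted p = 0.0389). With the pool as a covariate the difference of VIP from EXC was 2.01 (adjusted p = 0.00105), and SST against EXC (1.54, adjusted p = 0.0176) and VIP against PV (1.84, adjusted p = 0.00632) were called as well. In POOL7099, against the single EXC library there, VIP was higher by 2.17. The call of VIP over SST was lost when any 1 of SST replicates 1, 2, 3, 5 and 6 or VIP replicates 1, 2 and 5 was left out (adjusted p from 0.0551 to 0.0846), and within POOL7098 (0.38, adjusted p = 0.16). Without EXC replicate 6, at 83.2 CPM, Htr5a was also called higher in PV than in EXC (0.64, adjusted p = 0.00401) and in SST than in EXC (0.43, adjusted p = 0.047).

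**Figure D2:**
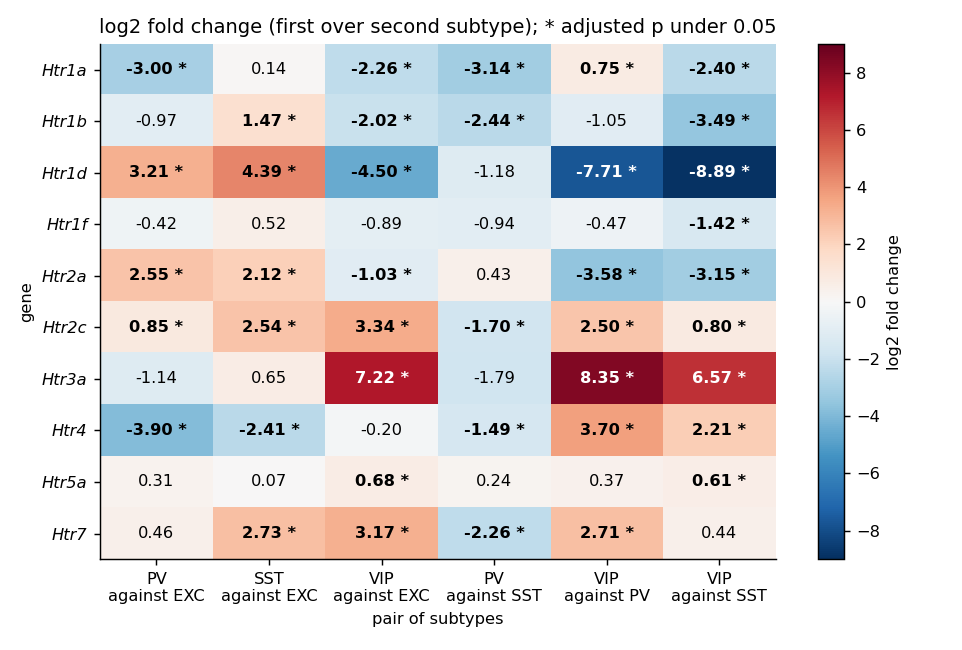
Fitted log2 fold change of each receptor gene (rows) in each pair of subtypes (columns), the first subtype over the second, with an asterisk where the adjusted p was under 0.05. Red is higher and blue lower in the first subtype; the Htr1d values against VIP rest on 0 reads in VIP and depend on the prior count. Htr2c carries an asterisk in all 6 columns and Htr1f in 1.

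Of the Gq-coupled receptors, Htr2a was highest in PV and SST. PV libraries held 42.6, 65.0 and 70.6 CPM at the lowest, the median and the highest, and SST libraries 37.7, 43.6 and 55.5 CPM. EXC libraries held 1.27, 11.5 and 15.2 CPM, and VIP libraries 2.80, 5.02 and 7.79 CPM. Every PV and SST library was above every EXC and VIP library. Htr2a was higher in PV than in EXC by a log2 fold change of 2.55 ± 0.32 (SE, adjusted p = 2.81e-07), with 2.32 (adjusted p = 1.31e-08) within POOL6188, and higher in SST than in VIP, where VIP fell by 3.15 ± 0.34 (SE, adjusted p = 4.14e-08). PV and SST were not called apart (0.43 ± 0.30 (SE), adjusted p = 0.324), but PV was called higher with only these subtypes fitted (0.45 ± 0.15 (SE), adjusted p = 0.0165). With the pool as a covariate PV was called lower than SST (-3.16 ± 0.72 (SE), adjusted p = 0.00289) and no longer apart from VIP (-0.25, adjusted p = 0.866), in a fit that ties PV to SST and VIP through a single EXC library.

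That library, EXC replicate 3, is the only EXC library of POOL7099 and had the lowest sum of excitatory markers, 2027 CPM against a median of 4942. It held 6 reads of Htr2a, or 1.27 CPM, whereas the other 5 EXC libraries held 8.86 to 15.2 CPM and the lowest VIP library 2.80. Htr2a was lower in VIP than in EXC over all libraries (-1.03 ± 0.33 (SE), adjusted p = 0.0136). In POOL7099, where 4 VIP libraries meet this EXC library alone, the direction turned and the difference was not called (2.55 ± 1.06 (SE), adjusted p = 0.16), and with the pool as a covariate VIP was called higher (2.10 ± 0.60 (SE), adjusted p = 0.0125). In the same library Htr1a, Htr1b, Htr2c and Htr5a were also at their lowest for EXC, at 31.7, 0.423, 8.04 and 18.0 CPM. Htr1d, Htr1f and Htr7 were at their highest for EXC there, at 0.846, 9.31 and 6.13 CPM. The library also had the highest sum of pan-GABAergic markers in EXC, 889 CPM against a median of 469. What part the pool or the makeup of the sort had in these values was not tested. The call of VIP against EXC was also lost without EXC replicate 2, the highest EXC library (-0.84, adjusted p = 0.0624).

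Htr2c, whose RNA is edited and whose protein raises excitability in many neurons, was the member with the most graded order, VIP over SST over PV over EXC. VIP libraries held 183, 227 and 252 CPM at the lowest, the median and the highest, and SST libraries 116, 130 and 160 CPM. PV libraries held 19.4, 38.4 and 62.1 CPM, and EXC libraries 8.04, 23.98 and 34.4 CPM. Only PV and EXC overlapped. Each step of the order was called: VIP over SST by 0.80 ± 0.26 (SE, adjusted p = 0.0209), SST over PV by 1.70 ± 0.27 (SE, adjusted p = 2.52e-05) and PV over EXC by 0.85 ± 0.28 (SE, adjusted p = 0.014). The step from EXC to PV was not called within POOL6188 (0.72 ± 0.31 (SE), adjusted p = 0.0683), and the step from SST to VIP was within POOL7098 (0.66, adjusted p = 0.00857). With the pool as a covariate the difference of PV from SST was -3.49 (adjusted p = 0.000453). Htr2c is also a classic transcript of the choroid plexus: the 8 markers of that tissue summed to 95.2 to 183 CPM in VIP, 28.6 to 47.3 in SST, 39.7 to 166 in PV and 42.7 to 218 in EXC, with the highest median, 128, in VIP. Enpp2 alone averaged 123 CPM in VIP, and the other 7 summed to 4.27 to 11.5 CPM in VIP, 8.56 to 21.8 in SST, 2.18 to 76.2 in PV and 21.8 to 60.7 in EXC. Folr1 and Otx2 were at 0 in VIP. The part of these markers in the Htr2c levels was not tested.

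Htr3a, the ligand-gated channel of the family, was high in VIP alone. VIP libraries held 85.5 CPM at the lowest, 126 at the median and 188 at the highest. The highest library of any other subtype, an SST library, held 2.84 CPM, and PV held 6 reads in all, with 0 in 3 libraries. VIP exceeded SST by a log2 fold change of 6.57 ± 0.40 (SE, adjusted p = 1.54e-12) and EXC by 7.22 ± 0.43 (SE, adjusted p = 4.1e-13), and PV by 308-fold (counting interval 141 to 840, adjusted p = 1.67e-12). These were the largest differences among the receptor genes other than those of Htr1d from 0 reads. Within POOL7098 VIP stood above SST by 5.82 (adjusted p = 2.01e-08), and in POOL7099 the 4 VIP libraries stood above the single EXC library there by 7.04. Between the low subtypes no pair was called, although PV against SST (-1.79 ± 0.69 (SE), adjusted p = 0.0569) was called by DESeq2 (adjusted p = 0.0352).

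Of the Gs-coupled receptors, Htr4 was high in EXC and VIP and low in SST and PV. EXC libraries ranged from 24.1 to 36.2 CPM with a median of 32.0, and VIP libraries from 16.1 to 34.2 with a median of 23.9. SST libraries ranged from 2.94 to 9.35 CPM with a median of 5.98, and PV libraries from 0 to 4.48 with a median of 1.81. EXC and VIP overlapped and were not called apart (-0.20 ± 0.25 (SE), adjusted p = 0.574), and all their libraries lay above all SST and PV libraries. Htr4 was lower in SST than in EXC by -2.41 ± 0.26 (SE, adjusted p = 3.37e-08), and PV, with 27 reads in 6 libraries, lay below SST by -1.49 ± 0.33 (SE, adjusted p = 0.00123), a call lost with the pool as a covariate (-1.46, adjusted p = 0.144). Within POOL6188 the difference of PV from EXC was -3.93 against -3.90 over all libraries.

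Htr7, the other Gs-coupled member and a receptor of circadian and thalamic circuits, followed VIP and SST. VIP libraries ranged from 17.0 to 51.2 CPM with a median of 27.3, and SST libraries from 10.2 to 35.6 with a median of 26.0. PV libraries ranged from 2.81 to 8.51 CPM with a median of 4.70, and EXC libraries from 1.36 to 6.13 with a median of 3.97. The 2 higher and the 2 lower subtypes did not overlap with each other, and neither VIP and SST (0.44 ± 0.32 (SE), adjusted p = 0.311) nor PV and EXC (0.46 ± 0.40 (SE), adjusted p = 0.354) were called apart. SST exceeded EXC by 2.73 ± 0.35 (SE, adjusted p = 7.7e-07), and VIP exceeded PV by 2.71 ± 0.38 (SE, adjusted p = 2.07e-06). With the pool as a covariate these fell to 1.86 (adjusted p = 0.107) and 1.86 (adjusted p = 0.138) and were not called. PV against SST fell from -2.26 to -1.27 (adjusted p = 0.354) and was not called either. VIP against EXC stayed called in that fit (2.44, adjusted p = 0.0219). In POOL7099, against the single EXC library there, VIP was higher by 2.27.

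**Figure D3:**
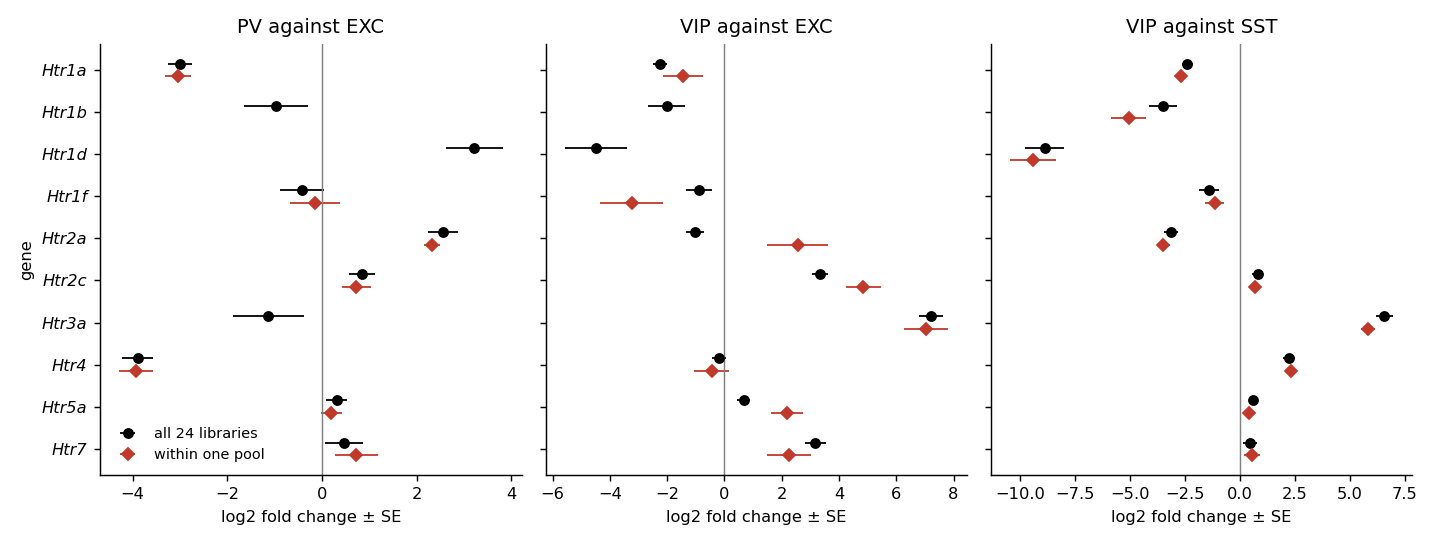
Log2 fold change and SE of each receptor gene in the 3 pairs that share a pool, from all 24 libraries (black circles) and from the shared pool alone (red diamonds); genes that failed the filter within a pool have no diamond. For PV against EXC and VIP against SST the diamonds lie on the same side of 0 as the circles, and for VIP against EXC, where 1 EXC library remains, Htr2a lies on the other side.

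For PV against EXC, 4 called genes had a value within POOL6188, with 6 PV and 5 EXC libraries, and all 4 had the same direction, 3 of them called. Of all genes in that fit, 2711 were called higher and 2974 lower of 12447. For VIP against SST, all 9 called genes had the same direction within POOL7098, with 2 VIP and 5 SST libraries, and 8 were called. There 3482 of all genes were called higher and 3386 lower of 16449. For VIP against EXC, POOL7099 sets 4 VIP libraries against EXC replicate 3 alone, and 5 of 6 called genes had the same direction there, which rests on that 1 library. With mitochondrial genes left out, the 10 receptor genes had the same calls in all 6 pairs.

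Compared between genes per length, in the authors' deposited RPKM, each subtype led with another receptor. Htr2a took the largest share of the summed RPKM of the 10 genes in all 6 PV libraries, at 46.8% ± 3.89 (SD, n = 6), and Htr2c in all 6 SST libraries, at 35.0% ± 1.94 (SD, n = 6). In VIP, Htr3a led in 5 of 6 libraries with 44.2% ± 8.04 (SD, n = 6), and Htr2c followed with 35.0% ± 4.39 (SD, n = 6). In EXC, Htr1a led in 5 of 6 libraries with 28.8% ± 7.26 (SD, n = 6), and Htr5a led in the other. Htr5a was second in PV, with 21.2% ± 3.32 (SD, n = 6), and in EXC, with 20.2% ± 5.83 (SD, n = 6). The summed RPKM of the 10 genes was highest in VIP at 82.8 ± 13.1, followed by SST at 45.5 ± 4.49, PV at 25.6 ± 4.26 and EXC at 20.4 ± 4.403 (SD, n = 6 each). The lowest VIP library, at 60.9, exceeded the highest SST library, at 52.9, and the lowest SST library, at 41.7, exceeded the highest PV library, at 31.1, while PV and EXC overlapped.

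**Figure D4:**
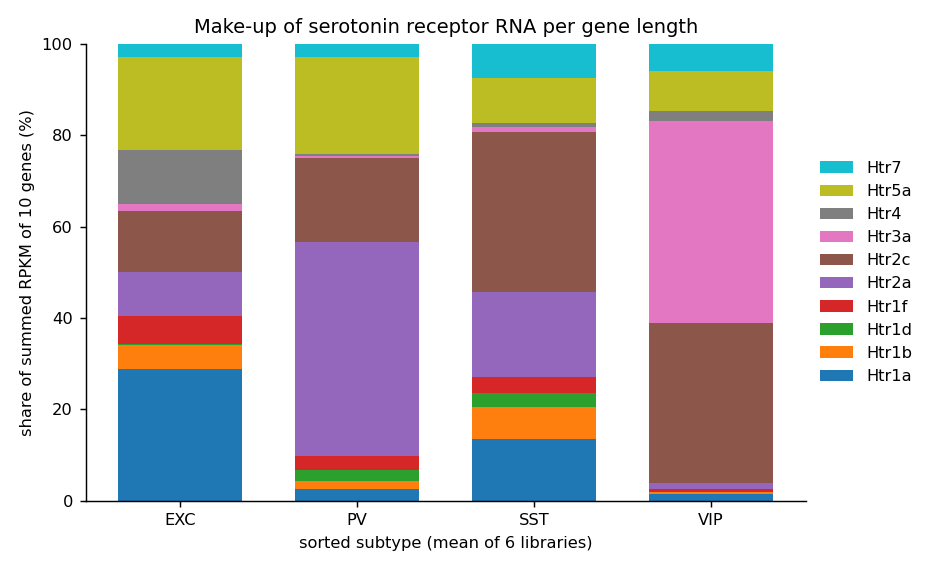
Share of each receptor gene in the summed RPKM of the 10 genes, in percent, as the mean of the 6 libraries of each subtype; the segments of a bar add up to the whole. Htr2a takes the largest segment in PV, Htr2c in SST, Htr3a in VIP and Htr1a in EXC.

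Within the SST sort, Htr1b, Htr1d and Htr4 were highest in the libraries with the most striatal markers. The rest of the 10 genes were not. Htr6, which did not pass the filter, was also highest in those libraries, at 1.40 and 2.38 CPM in replicates 1 and 3 (17 and 16 reads). Htr1b, Htr1d, Htr4 and Htr1a were picked after their values were seen. The summed level of 7 striatal projection neuron markers in SST replicates 1 to 6 was 1423, 886, 1593, 418, 762 and 436 CPM. In the same order Htr1b stood at 9.64, 5.07, 10.4, 2.81, 5.65 and 4.25 CPM, and Htr4 at 7.42, 4.98, 9.35, 4.55, 6.98 and 2.94 CPM. Replicates 1 and 3 were the highest in the marker sum, in Htr1b, in Htr1d and in Htr4, whereas Htr1a was highest in replicates 4 and 6, at 59.1 and 60.7 CPM, which had the lowest marker sums. Htr7 was lowest in replicates 1 and 3, at 18.5 and 10.2 CPM. Htr2c stood at 129, 130, 116, 133, 160 and 119 CPM in replicates 1 to 6, and it and Htr2a were highest in replicate 5. Replicates 4 and 6 are also the female SST libraries, and the marker sums of the 4 male libraries ran from 762 to 1593 CPM. The part of sex and of marker level in the receptor levels was not tested. Without replicates 1 and 3, an alternative chosen after seeing the data, 3 calls were lost: Htr1b in SST against EXC (1.23, adjusted p = 0.155), Htr2c in VIP against SST (0.67, adjusted p = 0.104) and Htr5a in VIP against SST (0.48, adjusted p = 0.178). The other SST calls of the 10 genes were kept in that fit.

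**Figure D5:**
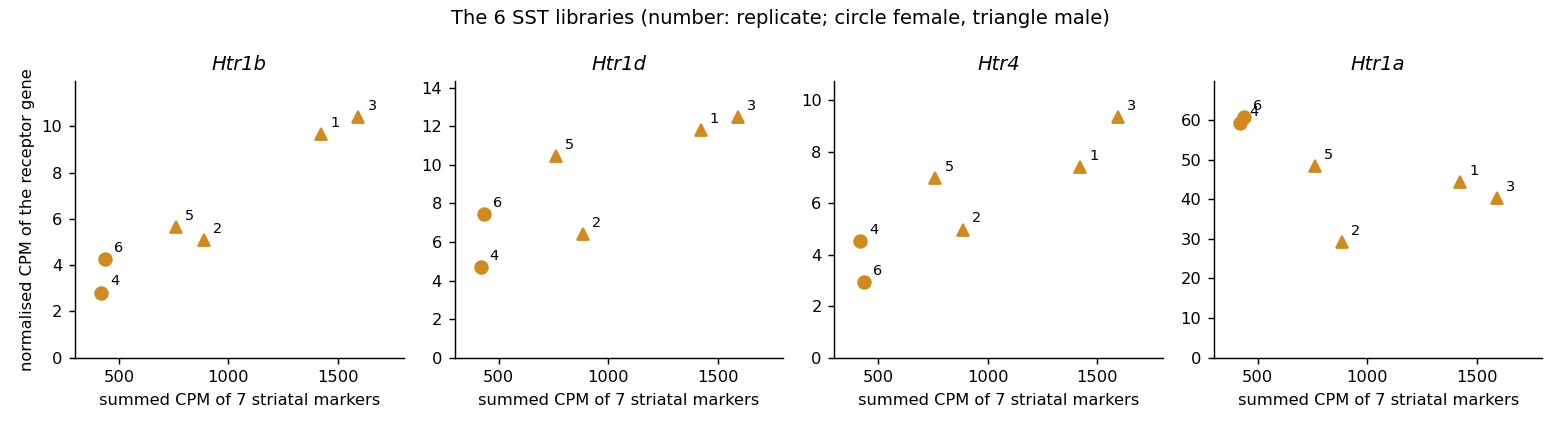
Level of Htr1b, Htr1d, Htr4 and Htr1a (vertical axes, normalised CPM) against the summed CPM of 7 striatal markers (horizontal axes) in the 6 SST libraries, numbered by replicate, with circles for female and triangles for male. Replicates 1 and 3, with 1423 and 1593 CPM of markers, are highest for Htr1b, Htr1d and Htr4.

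Sex made no called difference to any of the 10 genes. Between female and male libraries 0 of 10 were called by edgeR and 0 by DESeq2, and 6 of all genes (0.0403%) were. At an unadjusted p under 0.05 edgeR gave 2 of the 10, Htr1b and Htr4, both lower in female libraries (log2 fold changes -1.13 ± 0.47 and -0.45 ± 0.20 (SE), both adjusted p = 1), and DESeq2 gave 3. For a sex difference that varies between subtypes, 0 of 10 were called by either tool, as were 0 of all genes (0%), with 1 at an unadjusted p under 0.05, Htr3a, by edgeR and 1 by DESeq2. In edgeR a smaller share of all genes than of the 10 lay under this unadjusted threshold, for both of these sex terms. With 2 and 1 genes, the counts are too small to set the 10 apart from all genes.

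The genes most like each receptor gene in pattern were found by Pearson r of log2 CPM over the 24 libraries, among 9236 genes with a symbol and at least 10 CPM on average in their highest subtype. These libraries share their subtypes and pools, so the values describe shared differences between sorts and carry no test. The closest for Htr1a were Pde1a (r = 0.95), Kcnc4 (0.92) and Dgkg (0.92), and for Htr1d Satb1 (0.95), Lypd6 (0.94) and Sox6 (0.93). Htr2a was nearest to Gpr83 (0.96), Tox2 (0.94) and Sowahb (0.94), and Htr2c to Grb10 (0.97), Fstl5 (0.94) and Gnai1 (0.94). For Htr3a they were Cpne2 (0.95), Rgs12 (0.95) and Vip (0.95), for Htr4 Tet3 (0.95), Lrfn2 (0.93) and Prkd1 (0.91), and for Htr7 Nalcn (0.96), Mest (0.93) and Olfm3 (0.93). Likeness was lower for Htr1b, with Grik3 (0.86), Pmepa1 (0.85) and Six3 (0.84), for Htr5a, with Enpp2 (0.88), Lrrc8c (0.88) and Medag (0.86), and for Htr1f, with Snx7 (0.71), S100pbp (0.69) and Tceanc2 (0.68). Among the receptor genes themselves, r was 0.88 between Htr2c and Htr7, 0.80 between Htr1d and Htr2a, and -0.80 between Htr2a and Htr4.

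The signalling partners of these receptors are given by list, beside the share of all genes called in the same pair. Of 12 Gi/o partners, 9 were called in VIP against EXC (all genes 39.1%), 3 higher and 6 lower. Rgs10, which shortens Gi/o signals, averaged 141 CPM in VIP, 28.4 in SST, 10.98 in EXC and 4.71 in PV, and Rgs8, of the same family, 477 in VIP, 203 in SST, 99.4 in EXC and 14.1 in PV. Kcnj6, a subunit of the potassium channel that Htr1a opens, was higher in EXC, at 179 CPM, than in SST at 27.8 (-2.68 ± 0.16 (SE), adjusted p = 1.07e-12). Of 12 Gq/11 partners tested, 9 were called in VIP against EXC (39.1%), 8 lower and 1 higher, and 8 in VIP against SST (31.3%), 7 lower and 1 higher. Itpr1, the calcium release channel opened by that pathway, averaged 24.3 CPM in VIP, the subtype with the highest Htr2c, against 592 in EXC.

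Of 13 Gs partners, 10 were called in PV against EXC (all genes 45.9%), 7 higher and 3 lower, and 5 in VIP against SST (31.3%), 1 higher and 4 lower, a share near that of all genes. Rapgef3, a sensor of cyclic AMP, was higher in VIP, at 14.1 CPM, than in SST at 1.57 (3.45 ± 0.52 (SE), adjusted p = 1.24e-05), and Adcy2, a cyclase, lower in PV, at 16.8 CPM, than in SST at 132 (-3.02 ± 0.21 (SE), adjusted p = 4.38e-11). Of 14 factors that bind, traffic or edit the receptors, 4 to 7 were called in each pair, among them 6 in PV against EXC (all genes 45.9%), 7 in SST against EXC (38.4%) and 4 in VIP against PV (48.6%), with shares on both sides of those of all genes. Adarb1, an enzyme that edits Htr2c RNA, was highest in PV, at 226 CPM against 93.4 in SST (1.26 ± 0.15 (SE), adjusted p = 2.76e-07), and Mpdz, a scaffold that binds the Htr2c protein, averaged 136 CPM in VIP and 42.8 in SST (1.68 ± 0.21 (SE), adjusted p = 7.13e-07). Of 10 genes of serotonin synthesis, transport and breakdown, 5 passed the filter, and 1 to 3 were called in each pair, with 1 in VIP against SST (31.3%) and 3 in VIP against PV (48.6%). The serotonin transporter Slc6a4 had 2 reads in all 24 libraries and the raphe factor Fev 7; both are named after their values were seen. Maoa, which breaks serotonin down, averaged 46.9 CPM in VIP and 34.6 in SST against 11.2 in EXC (2.02 ± 0.22 and 1.62 ± 0.21 (SE), adjusted p = 2.8e-08 and 9.35e-07). Slc29a4, a low-affinity monoamine transporter, averaged 32.7 CPM in EXC and 2.39 in SST (-3.77 ± 0.31 (SE), adjusted p = 3.49e-10).

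The other 4 receptor genes of the family were low. Htr5b was nearly missing from VIP, with 4 reads in 6 libraries, and averaged 7.35 ± 5.23 CPM in PV, 3.44 ± 1.66 in EXC and 1.32 ± 1.08 in SST (SD, n = 6 each). It was called lower in VIP than in each other subtype, and higher in PV than in SST (2.48 ± 0.64 (SE), adjusted p = 0.00448). Htr2b was called higher in VIP, at 7.97 ± 5.95 CPM (SD, n = 6), than in PV and SST, but its gene model lies over that of Psmd1, a gene with 29026 reads, and the strand setting of the counting is not known. Htr3b, with 6 reads in all, and Htr6, at 1.14 CPM on average in its highest subtype, did not pass the filter. Among the 10 main genes, the gene models of Htr1b, Htr2c, Htr3a and Htr4 share bases with other models, which held 882, 50, 141 and 213 reads over all libraries, so reads of the partners cannot be told apart there.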

How the data were processed

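The 24 libraries hold deposited counts of reads per gene, by NCBI Gene number; per the file headers these are reads aligned uniquely to a gene model. A second deposited column holds RPKM values that the authors adjusted by size factors, per the file headers; here they served for shares and for comparing genes per length. Reads were aligned with GSNAP to GRCm38, per the submitters' processing notes. Not given in the sources used here are the aligner's version, the counter, its annotation, the strand setting and how size factors were found.

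Of 36528 genes, 31049 took symbols from RefSeq and 77 from GENCODE M21. The unnamed genes, with 0.844% to 2.98% of the reads, stayed in the tests. Genes were filtered with filterByExpr and scaled by TMM, and a model of subtype and sex was fitted in edgeR 4.0.16 (R 4.3.3) over all 24 libraries, with quasi-likelihood F tests and a threshold of 0.05 on p adjusted by Benjamini-Hochberg across the 14890 genes tested. The method was tested on simulated data. A standard error is the size of the log2 fold change divided by the square root of F. For genes with few reads the ratio of summed reads is given with a 95% counting interval, or against a floor of 3 reads; both cover counting error only. CPM of the counts uses TMM factors, and log2 CPM a prior count of 2.

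The receptor genes, the pathway lists, the markers and the tests were chosen with earlier results of these data known. All 10 receptor genes are named; from each pathway list and pair, at most the 2 called genes with the largest change; and for each receptor gene the 3 most similar genes. Alternatives were DESeq2 1.42.0, edgeR with that tool's size factors or with upper-quartile scaling, an absent filter or one of 5 CPM in 6 or more libraries, robust fitting, no mitochondrial genes, no sex term, the pool as covariate, the compared subtypes or 1 pool alone, and libraries left out.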

Additional observations from a re-analysis of the deposited data

Results flagged for a closer look

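Among 40 groups of 6 libraries (10 receptor genes in 4 subtypes), 2 held a library far from the other 5 by Dixon's criterion, where chance flags about 1 in 20 groups. Htr1b in VIP replicate 5 stood at 1.47 CPM, with the next VIP library at 0.359 CPM (gap over range 0.756). Htr5a in SST replicate 4, a female library, stood at 58.2 CPM, with the next SST library at 44.7 CPM (gap over range 0.728).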

How the results depend on the processing

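Of 60 results (10 receptor genes in 6 pairs), 40 were called, and 23 of these kept their call and direction in all of the 38 alternatives that gave a value; 32 did so outside the 2 that involve the pool. With only the 2 subtypes compared, 3 of the 7 receptor genes with a value were called in PV against EXC, 4 of 8 in VIP against EXC and 8 of 9 in PV against SST. Of all genes in those fits, 2353 were called higher and 2677 lower of 12178 in PV against EXC. In VIP against EXC they were 1791 and 2188 of 14116. In PV against SST they were 2600 and 2771 of 12485, where the main fit gave 1698 and 2213 of 14890. Among receptor genes with a value, calls were lost for Htr2c in PV against EXC (adjusted p = 0.0817) and for Htr2a and Htr5a in VIP against EXC (0.119 and 0.0907). In PV against SST, Htr1d, Htr1f and Htr2a were gained (adjusted p = 0.0136, 0.0497 and 0.0165). Within one pool, 3 of the 7 receptor genes with a value were called in PV against EXC. Of all genes in that fit, 2711 were called higher and 2974 lower of 12447. VIP against EXC rested there on a single EXC library. With the pool as a covariate, Htr1b in VIP against EXC turned to 1.11 (adjusted p = 0.587), Htr2a in VIP against EXC to 2.10 (0.0125) and Htr2a in PV against SST to -3.16 (0.00289); within one pool Htr2a in VIP against EXC was 2.55 (0.16). The cause of these turns was not tested. Htr1d in SST against EXC and in PV against SST could not be estimated with the pool as a covariate (SE 8358 and 541).

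Leaving out 1 library at a time gave 5 to 6 called genes in PV against EXC, 5 to 7 in SST against EXC, 7 to 8 in VIP against EXC, 5 to 6 in PV against SST, 6 to 7 in VIP against PV and 8 to 9 in VIP against SST. For sex and for sex by subtype it gave 0 to 0. Without EXC replicates 2, 3 and 6, an alternative chosen after seeing the data, Htr2c in PV against EXC was not called (0.63, adjusted p = 0.069). The same fit gained calls for Htr5a in PV against EXC (0.53, adjusted p = 0.0124) and in VIP against PV (0.35, adjusted p = 0.0281). It also gained Htr1d in PV against SST (-1.25, adjusted p = 0.0449). EXC replicates 2 and 6 had the highest oligodendrocyte marker sums of EXC, 2943 and 2780 CPM against a median of 562. No paired analysis was possible because the labels give no replicate numbers, and those used here follow the order of accession. A level of 1 CPM is 1.55 reads in the shallowest library, so ratios of genes near 0 rest on few reads.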
